A study of Dugesia japonica with 18 samples.

Results

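The unigenes described here carry the intracellular steps of Wnt signalling in Dugesia japonica, a freshwater planarian known for regrowing lost body regions. They were chosen by name: a unigene (an assembled transcript group) entered when its SwissProt or nr protein description held one of the phrases for beta-catenin, Axin, adenomatous polyposis coli, dishevelled, glycogen synthase kinase-3 or transcription factor 7-like. It also had to reach a level of 1 CPM, a unigene's count relative to the total of its library, in 3 or more of 18 libraries, and the 10 with the highest summed counts were kept. Of 267235 unigenes, 36 held a phrase, 29 of these passed the CPM minimum and 10 were kept. The tenth had a summed count of 17601, and the next unigene, a beta-catenin at rank 11, had 16824.

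Messenger RNA of 3 body fragments, head, trunk and tail, was sequenced at days 0, 1, 3, 5, 7 and 10, which gave 18 libraries, 1 per fragment and day. No treatment, mutant or strain is named in the labels, and the series title states the head-to-tail axis and the RNA mark m6A as its subject. Each library is a pool of 10 to 20 animals of mixed cells, and the labels do not say what day 0 stands for. In such bulk libraries, fewer cells of a type and less RNA per cell cannot be told apart.

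In the canonical Wnt pathway, Axin and APC hold beta-catenin in a complex in which the kinase GSK-3 marks it for destruction. A Wnt signal, relayed by dishevelled, stops that destruction, and beta-catenin then works with TCF/LEF proteins on target genes. In planarians this switch sets the head-to-tail axis: silencing of beta-catenin-1 gives heads in place of tails, and silencing of APC or the Axins gives tails in place of heads. Genes that mark position along the planarian body are expressed largely in muscle.

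Of the 10 unigenes, 9 matched a phrase as a whole word. These are beta-catenin-1 (TRINITY_DN14937_c0_g1), the destruction complex scaffolds Axin B (TRINITY_DN3130_c2_g1, best match axis inhibition protein B of Schmidtea), Axin A (TRINITY_DN194239_c0_g1, axis inhibition protein A of Schmidtea) and APC (TRINITY_DN9598_c1_g1), and 2 unigenes named glycogen synthase kinase-3 beta. The first kinase unigene, GSK-3 (DN1006) (TRINITY_DN1006_c2_g1), matched GSK-3 of Dugesia japonica best. The second, GSK-3 (DN3910) (TRINITY_DN3910_c1_g1), matched a fungal gsk3 best in nr, and the annotation does not say how it relates to the first. The relay protein dishevelled (TRINITY_DN674_c1_g1) and 2 unigenes of dishevelled-associated activator of morphogenesis 1, DAAM1 (DN4305) (TRINITY_DN4305_c0_g1) and DAAM1 (DN56649) (TRINITY_DN56649_c0_g1), complete the group. DAAM1 is a formin, a protein that assembles actin and joins dishevelled to the cytoskeleton. The tenth unigene, Sec1 family domain-containing protein 1 (TRINITY_DN1231_c2_g1), which acts in transport of vesicles, matched only because the letters of axin stand inside syntaxin. It is no Wnt component by its name and is described only because the rule took it. Near-identical copies can share reads, so the split between the 2 kinase unigenes, the 2 DAAM1 unigenes and the 2 Axins is uncertain.

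Each library held between 17547716 and 21229980 counts. The floor of 3 counts below which a unigene was not read as detected was worth 0.141 to 0.171 CPM. Each member had at least 599 counts in every library. The most abundant unigene held 13.0% of the counts in the head day 1 library and up to 49.6% in tail, so levels are given as CPM scaled with TMM factors, which correct for such a shift and ran from 0.680 to 1.499, with the highest in the head day 1 library. The summed level of 27 brain and eye marker unigenes was 1073 to 1443 CPM in head, 487 to 617 CPM in trunk and 619 to 848 CPM in tail. Not all of the 27 went that way: 12 were higher and 6 lower in head than in tail, beside 18.9% and 19.1% of all unigenes tested. That of 5 posterior marker unigenes was 11.4 to 26.8 CPM in head, 35.3 to 51.6 CPM in trunk and 58.9 to 209 CPM in tail, as a summed level. The 2 unigenes of the pharynx list summed to 23.3 to 45.5 CPM in head, 23.9 to 46.2 CPM in trunk and 12.5 to 18.3 CPM in tail. The head and trunk sums overlapped, and 1 of the 2 was lower in head than in trunk.

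Axin B, Axin A, APC and the 2 GSK-3 unigenes, all destruction complex names, are among the 10 members because the rule asks for them. Of the 5 members that differed between head and tail, 4 were of these. Against tail, head had lower levels of Axin B, Axin A and GSK-3 (DN3910), and higher levels of GSK-3 (DN1006). With plain library totals Axin A turned to 0.38, then called higher in head, and GSK-3 (DN3910) to 0.03, without a call. Beta-catenin-1, APC and dishevelled did not pass the test. In all, 5 of the 10 members passed in head against tail, 2 higher and 3 lower in head, beside 38.0% of all 23616 unigenes tested, with 18.9% higher and 19.1% lower. Against trunk, 4 members passed in head, 1 higher and 3 lower, beside 39.6% of all unigenes (17.8% higher, 21.7% lower). In trunk against tail 3 members passed, 1 higher and 2 lower, beside 35.6% of all unigenes (18.1% higher, 17.5% lower). The members' shares are near those of all unigenes. With plain library totals as scaling, 15732 unigenes were higher and 1103 lower in head than in tail, against 4460 and 4514 with TMM, and with totals that leave out the most abundant unigene 8108 were higher and 2526 lower. The median absolute log2 difference between head and tail was 0.19 over the members and 0.37 over all unigenes tested. The members were kept for their high counts, so this gap cannot be read as a trait of the pathway. The 9 other core unigenes, with lower counts, had a median of 0.60. The test was the quasi-likelihood test of edgeR on fragment plus day, with Benjamini-Hochberg adjustment over all unigenes tested and a threshold of 0.05. Days of a fragment stand in for replicates, so its p-values measure the spread over days and libraries and not that between repeat pools.

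**Figure D1:**
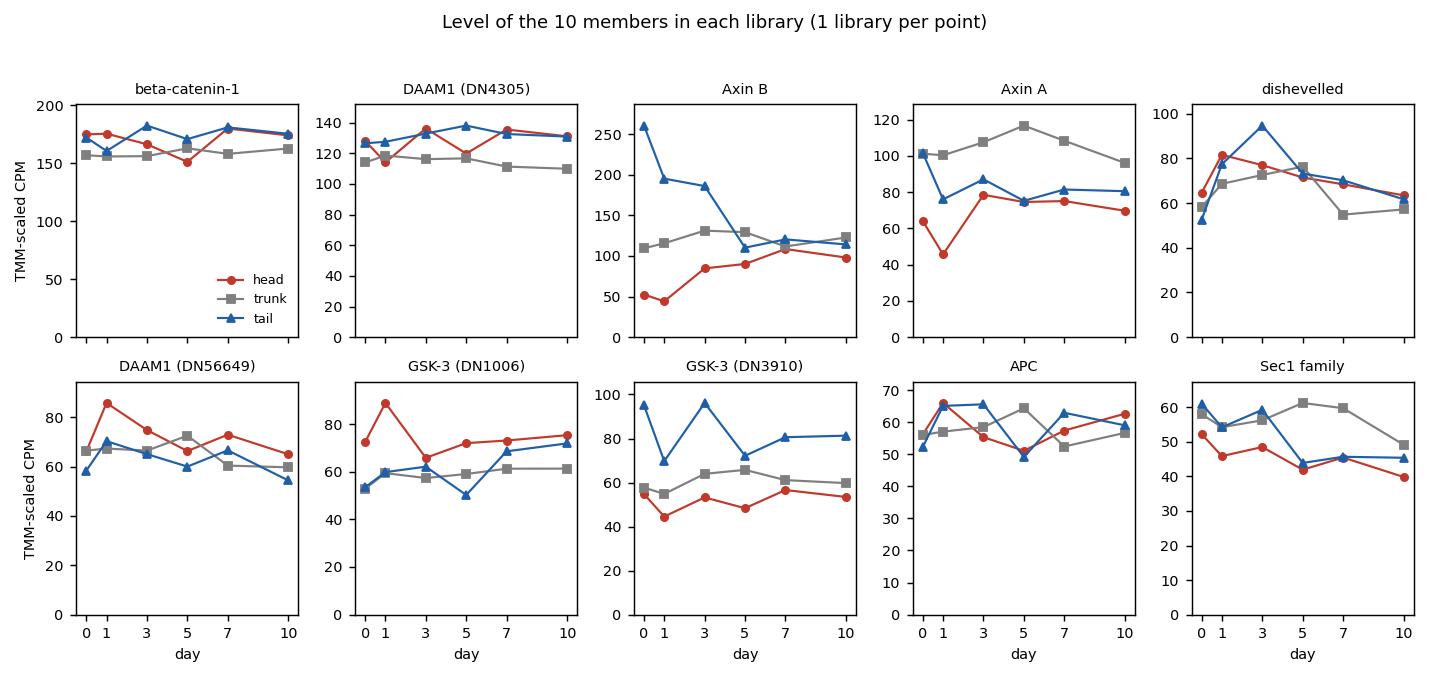
Level of each of the 10 members in TMM-scaled CPM (vertical axis, from 0) against day (horizontal axis) in head (red circles), trunk (grey squares) and tail (blue triangles), 1 library per point. Axin B runs from 52.5 to 98.1 CPM in head and from 261 to 114 CPM in tail between days 0 and 10, whereas beta-catenin-1 lies between 151 and 182 CPM in every library.

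Axin B was the member that varied most, with its highest library 5.91 times its lowest. In head its level on days 0, 1, 3, 5, 7 and 10 was 52.5, 44.1, 84.7, 90.2, 109 and 98.1 CPM. In trunk it was 110, 116, 131, 129, 112 and 123 CPM on the same days. In tail it was 261, 195, 186, 110, 120 and 114 CPM. Each head library was below each trunk and each tail library, and the tail libraries of days 0, 1 and 3 were above all others. Axin B averaged 79.7 ± 25.7 CPM in head, 120 ± 9.15 CPM in trunk and 164 ± 60.1 CPM in tail (SD, n = 6 days each). Head was lower than tail by a log2 fold change of -1.04 ± 0.29 (SE, edgeR adjusted p = 0.0131), on 6 of 6 days. Head against trunk gave -0.60 ± 0.28 (edgeR adjusted p = 0.112) with lower values on 6 of 6 days, and trunk against tail -0.45 ± 0.28 (edgeR adjusted p = 0.240). With days 0 to 3 alone head against trunk was called (-0.98, edgeR adjusted p = 0.00836). The same held with days 5 to 10 alone (-0.30, edgeR adjusted p = 0.0348) and without the day block (-0.59, adjusted p = 0.0495). Of 15 alternatives, 10 kept the call in head against tail, over an adjusted p of 0.000199 to 0.213. It was lost with days 5 to 10 alone (-0.22, edgeR adjusted p = 0.129), with plain library totals (-0.34, edgeR adjusted p = 0.213) and without day 1 (-0.83, edgeR adjusted p = 0.0514) or day 3 (edgeR adjusted p = 0.05001) or the count filter (edgeR adjusted p = 0.0559). The 34 muscle marker unigenes moved the same way, with 3 higher and 22 lower in head than in tail, beside 18.9% and 19.1% of all unigenes. Their summed level was 6665 to 10062 CPM in head and 11932 to 17811 CPM in tail. The 5 posterior marker unigenes had 0 higher and 5 lower. None of either list was at 0 counts throughout a fragment, and their part in the Axin B difference was not tested.

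The change of Axin B over time differed between the fragments. In tail, days 5, 7 and 10 averaged 115 ± 5.12 CPM, against 214 ± 40.6 CPM on days 0, 1 and 3 (SD, n = 3 days each). That was a fall of log2 -0.90 ± 0.18 (SE, edgeR adjusted p = 0.00731), and the late and early libraries did not overlap. In head, the late days averaged 98.9 ± 9.22 CPM, against 60.5 ± 21.4 CPM early, again with no overlap. The head difference was 0.71 ± 0.18 but did not pass after adjustment (edgeR adjusted p = 0.106). In trunk the late days averaged 121 ± 8.91 CPM, against 119 ± 11.2 CPM early, a difference of 0.03 ± 0.18 whose 95% interval ran from -0.35 to 0.41. The F test of both interaction terms gave an edgeR adjusted p = 0.0184, beside 1.13% of all unigenes called in that test. Of the members, Axin B alone passed it. Without day 0, 1, 7 or 10 that adjusted p was between 0.116 and 0.198, and without day 0, 7 or 10 the fall in tail had an adjusted p between 0.0551 and 0.0664, with log2 changes of -0.73 to -0.93. In the tail libraries the summed muscle markers were 11932 to 13544 CPM late, against 14955 to 17811 CPM early, with 0 of 34 higher and 4 lower, beside 3.28% and 1.48% of all unigenes. The posterior markers summed to 58.9 to 64.9 CPM late, against 105 to 209 CPM early, with 0 of 5 higher and 3 lower. Their part in the fall of Axin B was not tested.

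Axin A had another pattern, with trunk highest. Its lowest, median and highest levels were 45.7, 72.2 and 78.5 CPM in head, 96.1, 104 and 117 CPM in trunk, and 75.2, 81.0 and 102 CPM in tail. All head libraries lay below all trunk libraries, and head and tail overlapped. Head averaged 67.9 ± 12 CPM, trunk 105 ± 7.35 CPM and tail 83.7 ± 9.77 CPM (SD, n = 6 days each). Against trunk, Axin A was lower in head by -0.64 ± 0.10 (SE, edgeR adjusted p = 6.60e-05). Against tail, head was lower by -0.31 ± 0.10 (edgeR adjusted p = 0.0191), on 6 of 6 days. With plain library totals as scaling Axin A was instead called higher in head, at 0.38 (edgeR adjusted p = 0.0022), where the median of all unigenes itself moved by 0.70. With days 5 to 10 alone this difference was -0.11 (edgeR adjusted p = 0.396), and with totals that leave out the most abundant unigene -0.06 (edgeR adjusted p = 0.661). The call was also lost without day 0 (edgeR adjusted p = 0.0909), day 1 (edgeR adjusted p = 0.0598) or the head day 1 library alone (-0.23, edgeR adjusted p = 0.0520). Trunk was above tail by 0.33 ± 0.10 (edgeR adjusted p = 0.0149), on 5 of 6 days, a call that 11 of 15 alternatives kept. It was lost with totals that leave out the most abundant unigene (edgeR adjusted p = 0.0772), on days 0 to 3 (edgeR adjusted p = 0.274) and without day 5 (edgeR adjusted p = 0.0641) or day 7 (edgeR adjusted p = 0.0507). No late change of Axin A passed: the differences were 0.22 ± 0.15 in head, 0.06 ± 0.15 in trunk and -0.16 ± 0.15 in tail.

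A ratio of 2 counts in the same library needs no scaling, although its size depends on transcript length and only its differences between libraries can be read. Axin B over Axin A was 0.821, 0.966, 1.08, 1.21, 1.45 and 1.41 in head on days 0 to 10, and 1.03 to 1.28 in trunk. In tail it was 2.57, 2.57, 2.14, 1.47, 1.48 and 1.42 on the same days. On days 7 and 10 the ratios of head and tail had overlapping 95% counting intervals, which they did not have on days 0, 1, 3 and 5. Head was below tail on 6 of 6 days with a mean log2 difference of -0.73 ± 0.72, and trunk below tail on 6 of 6 days with -0.71 ± 0.43 (SD, n = 6 days). An exact paired sign-flip test over days, two-sided, gave p = 0.0313 for both, the smallest 6 days allow, and a Benjamini-Hochberg adjusted p = 0.0521 over the 15 ratio comparisons made, which misses 0.05.

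**Figure D2:**
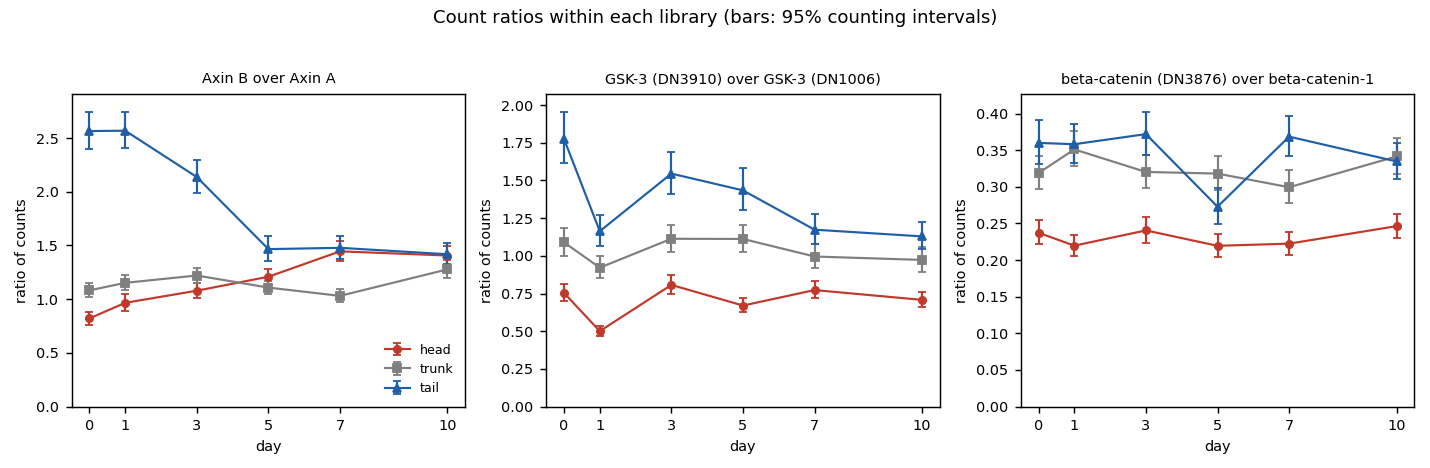
Ratio of counts within each library (vertical axes, from 0) against day for Axin B over Axin A, GSK-3 (DN3910) over GSK-3 (DN1006), and beta-catenin (DN3876) over beta-catenin-1, in head, trunk and tail. Bars are 95% Wilson binomial intervals, which cover counting error only. The Axin ratios of head and tail start at 0.821 and 2.57 and end at 1.41 and 1.42, while the kinase ratio keeps the order head, trunk, tail on all 6 days.

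The 2 kinase unigenes differed from the other fragments in opposite directions in head. GSK-3 (DN3910) had lowest, median and highest levels of 44.5, 53.3 and 56.6 CPM in head, 54.8, 60.4 and 65.8 CPM in trunk and 69.7, 80.9 and 96.2 CPM in tail. Every tail library was above every head and trunk library. It was lower in head than in tail by -0.67 ± 0.07 (SE, edgeR adjusted p = 3.05e-06) and lower in trunk than in tail by -0.44 ± 0.07 (edgeR adjusted p = 0.000258), each on 6 of 6 days. Head was lower than trunk by -0.23 ± 0.07 (edgeR adjusted p = 0.0214), on 6 of 6 days but with overlapping values, a call that 5 of 15 alternatives kept. With plain library totals the head differences turned to 0.03 against tail and 0.08 against trunk, and with totals that leave out the most abundant unigene the head-to-trunk difference was 0.13, all without a call. The median of all unigenes moved by 0.70, 0.30 and 0.36 in those settings, and relative to it GSK-3 (DN3910) stayed at -0.66, -0.22 and -0.22. The call in trunk against tail was lost with plain library totals as well (-0.05, edgeR adjusted p = 0.677). Between head and tail, the muscle markers given beside Axin B moved the same way as GSK-3 (DN3910), with 22 of 34 lower in head and a median of -0.61. So did the cilia markers, with 1 of 42 higher and 18 lower, beside 18.9% and 19.1% of all unigenes. In trunk against tail 9 muscle markers were higher and 10 lower (median -0.01), beside 18.1% and 17.5% of all unigenes. Of the cilia markers 1 was higher and 14 lower there. In head against trunk 1 muscle marker was higher and 21 lower, beside 17.8% and 21.7%. Of the cilia markers 4 were higher and 7 lower in that comparison. The part of both lists was not tested.

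GSK-3 (DN1006) had 65.9, 72.9 and 89.0 CPM as lowest, median and highest in head, 52.9, 59.3 and 61.4 CPM in trunk and 50.3, 61.1 and 72.0 CPM in tail. All head libraries were above all trunk libraries, and head and tail overlapped. It was higher in head than in tail by 0.29 ± 0.08 (SE, edgeR adjusted p = 0.00778) and higher in head than in trunk by 0.35 ± 0.08 (edgeR adjusted p = 0.00214), each on 6 of 6 days. Trunk against tail gave -0.05 ± 0.08 (edgeR adjusted p = 0.634). With days 5 to 10 alone the difference from tail in head was 0.22 and was not called (edgeR adjusted p = 0.154). The difference from trunk in head was 0.28 on those days and was not called either (edgeR adjusted p = 0.0599). The 44 neuronal marker unigenes, which summed to 2095 to 2430 CPM in head, 1080 to 1298 CPM in trunk and 1281 to 1808 CPM in tail, moved with GSK-3 (DN1006). Of these, 24 were higher and 11 lower in head than in tail, beside 18.9% and 19.1% of all unigenes, and their part was not tested. The ratio of GSK-3 (DN3910) to GSK-3 (DN1006) averaged 0.702 ± 0.110 in head, 1.03 ± 0.0817 in trunk and 1.37 ± 0.261 in tail (SD, n = 6 days each). On each of the 6 days head was lowest and tail highest (exact paired sign-flip test, p = 0.0313 for each pair, adjusted p = 0.0521). Neither kinase passed a late-against-early test in any fragment.

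**Figure D3:**
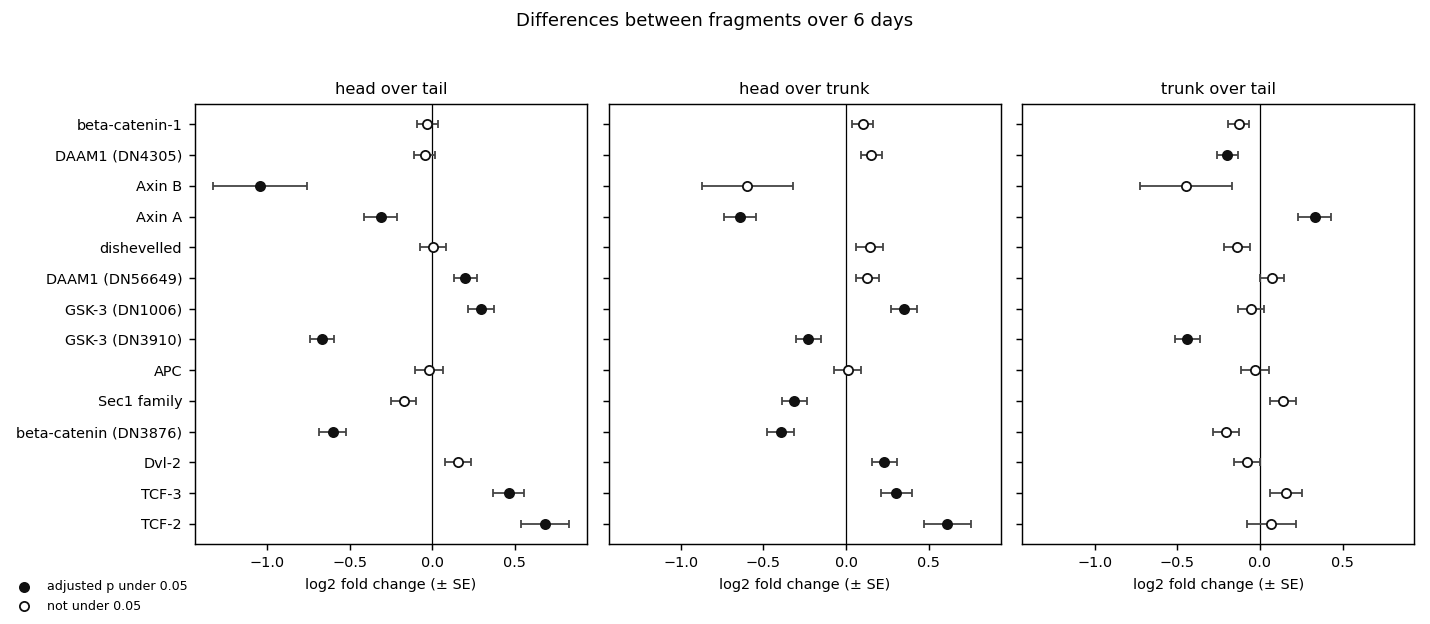
Log2 fold change with its SE (horizontal axes) of the 10 members and 4 further core unigenes for head over tail, head over trunk and trunk over tail. Filled points have an edgeR adjusted p under 0.05 and open points do not. Axin B, Axin A and GSK-3 (DN3910) lie left of 0 in head over tail (the last 2 at 0.38 and 0.03 with plain library totals), GSK-3 (DN1006), TCF-3 and TCF-2 lie right of it, and beta-catenin-1, dishevelled and APC lie at -0.03, 0.00 and -0.02.

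The effector and the remaining scaffold were among the 3 members that varied least over the 18 libraries. Beta-catenin-1 had lowest, median and highest levels of 151, 174 and 180 CPM in head, 156, 157 and 163 CPM in trunk and 160, 174 and 182 CPM in tail, which overlap. Its highest library was 1.21 times its lowest, the narrowest range of the 10 members. Head against tail differed by -0.03 ± 0.06 (edgeR adjusted p = 0.753), with a 95% interval from -0.16 to 0.10. Head against trunk gave 0.10 ± 0.06 (edgeR adjusted p = 0.221), and trunk was below tail on 6 of 6 days by -0.13 ± 0.06 (edgeR adjusted p = 0.120). APC had 51.1, 56.9 and 66.1 CPM as lowest, median and highest in head, 52.5, 56.9 and 64.4 CPM in trunk and 49.2, 61.0 and 65.7 CPM in tail. The fragments overlapped, and the intervals of its 3 differences all lay between -0.21 and 0.18 on the log2 scale. These intervals hold under TMM scaling. With plain library totals beta-catenin-1 and APC were called higher in head than in tail, at 0.67 and 0.67, as large as the shift of the median of all unigenes.

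A second beta-catenin, the first unigene outside the 10, did differ. Beta-catenin (DN3876) (TRINITY_DN3876_c0_g2) matched Armadillo, the fly beta-catenin, in SwissProt and a beta-catenin of Dugesia japonica in nr. Planarians divide the signalling and adhesion roles of beta-catenin between genes, and the annotation does not say which role this unigene has. Its lowest, median and highest levels were 33.2, 40.0 and 42.8 CPM in head, 47.3, 50.9 and 55.5 CPM in trunk and 46.6, 60.3 and 67.8 CPM in tail, with all head libraries below all trunk and tail libraries. It was lower in head than in tail by -0.60 ± 0.08 (SE, edgeR adjusted p = 1.78e-05) and than in trunk by -0.40 ± 0.08 (edgeR adjusted p = 0.000761), each on 6 of 6 days, but with plain library totals the sign against tail turned to 0.09. The call against trunk was lost with both totals (-0.09 and -0.04). Muscle markers moved the same way here too, and their part was not tested. Its count over that of beta-catenin-1 averaged 0.231 ± 0.0118 in head, 0.325 ± 0.0185 in trunk and 0.344 ± 0.0374 in tail (SD, n = 6 days each). Head was lower than each of the others on 6 of 6 days (exact paired sign-flip test, p = 0.0313, adjusted p = 0.0521).

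Dishevelled, the relay protein, passed no test between fragments, and its highest level was on day 1 in head, day 5 in trunk and day 3 in tail. Its levels on days 0, 1, 3, 5, 7 and 10 were 64.7, 81.6, 77.0, 71.5, 68.4 and 63.5 CPM in head, 58.3, 68.6, 72.6, 76.3, 54.9 and 57.2 CPM in trunk, and 52.6, 77.4, 94.7, 73.3, 70.2 and 61.7 CPM in tail. In each fragment the level was higher on days 1, 3 and 5 than on day 0. The test of a change on any day missed the threshold (edgeR adjusted p = 0.0579), where 4.59% of all unigenes and 0 of the 10 members passed, and 1 of the 10, dishevelled, had an unadjusted p under 0.05. DESeq2 and the fit with nearly no filter each called dishevelled (adjusted p = 0.00761 and 0.0333). Head against tail gave 0.00 ± 0.08 (edgeR adjusted p = 0.975), with a 95% interval from -0.16 to 0.17. Of the DAAM1 unigenes, DAAM1 (DN4305) was lower in trunk, at 110 to 119 CPM, than in tail, at 127 to 138 CPM, by -0.20 ± 0.06 (SE, edgeR adjusted p = 0.0220), with no overlap, a call that 9 of 15 alternatives kept and that turned to 0.19 with plain library totals. DAAM1 (DN56649) was higher in head, at 65.0 to 85.8 CPM, than in tail, at 54.3 to 70.3 CPM, by 0.20 ± 0.07 (edgeR adjusted p = 0.0316), on 6 of 6 days with overlapping values. This call held in 5 of 15 alternatives and was lost among others in the fit without the day block (edgeR adjusted p = 0.0729).

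Late against early, 0 of the 10 members passed in head, beside 0.275% of all unigenes, and 0 in trunk, beside 0.0%. In head 1 member, Axin B, had an unadjusted p under 0.05, and in trunk 0 had. DESeq2 called 1 member in head and 0 in trunk. In tail 2 of 10 passed, 0 higher and 2 lower, beside 4.76% of all unigenes (3.28% higher, 1.48% lower): Axin B and the Sec1 family unigene. The Sec1 family unigene averaged 45.0 ± 0.960 CPM on the late days in tail, against 58.2 ± 3.56 CPM early (SD, n = 3 days each), a fall of -0.37 ± 0.10 (SE, edgeR adjusted p = 0.0454) without overlap, which 2 of 13 alternatives kept. It was also lower in head, at 39.9 to 52.2 CPM, than in trunk, at 49.2 to 61.3 CPM, by -0.31 ± 0.08 (edgeR adjusted p = 0.00379), kept in 12 of 15 alternatives, which turned to 0.05 with totals that leave out the most abundant unigene. Matched as whole words the phrases would give beta-catenin (DN3876) in its place and share 9 of the 10 members.

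**Figure D4:**
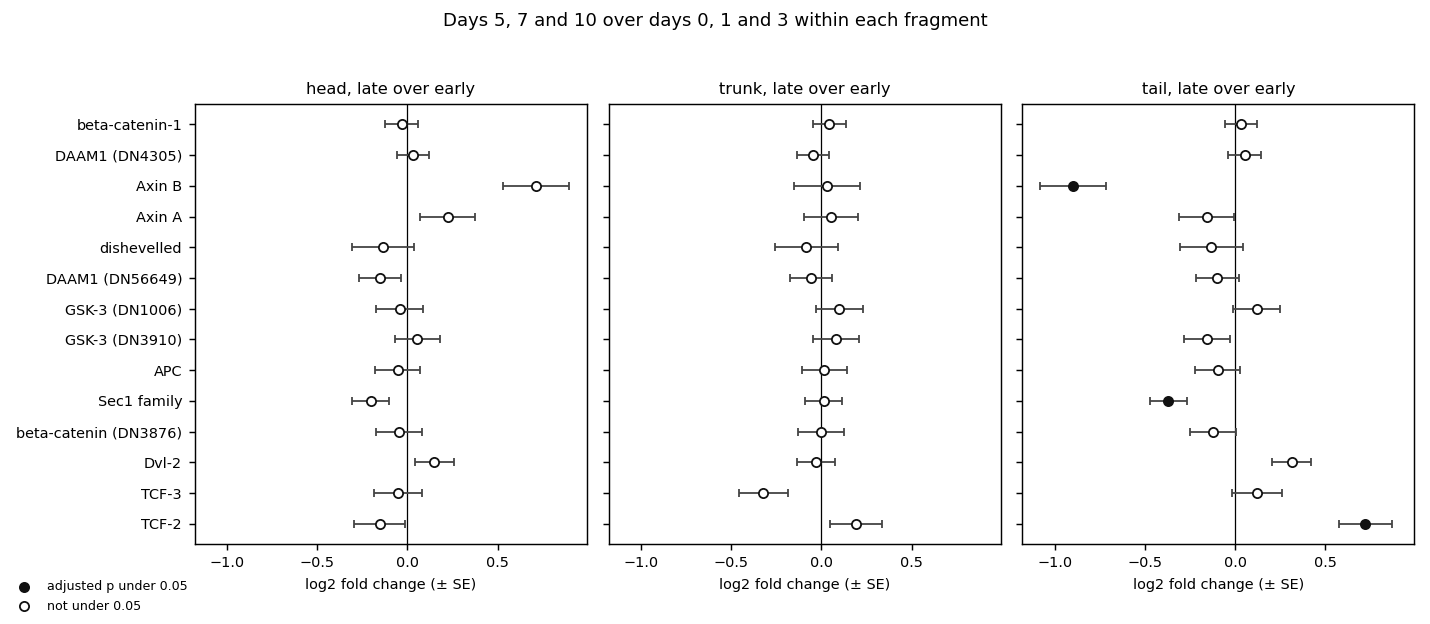
Log2 fold change with its SE of days 5, 7 and 10 over days 0, 1 and 3 (horizontal axes) in head, trunk and tail for the 10 members and 4 further core unigenes. Filled points have an edgeR adjusted p under 0.05. Axin B lies at 0.71 in head, 0.03 in trunk and -0.90 in tail, and TCF-2 at 0.72 in tail.

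The TCF/LEF factors, through which beta-catenin reaches target genes, lie outside the 10 by count but were on the list of the intracellular core. That list had 18 tested unigenes. In head against tail 6 were higher and 4 lower, with a median log2 difference of 0.09 beside 0.02 for all unigenes tested. Of all unigenes 18.9% were higher and 19.1% lower. In head against trunk 7 were higher and 3 lower, beside 17.8% and 21.7% of all unigenes, and in trunk against tail 1 was higher and 3 lower, beside 18.1% and 17.5%. Late against early in tail, 2 were higher and 1 lower, beside 3.28% and 1.48%. Of the 18, 9 are members already described.

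TCF-1 (DN1961) (TRINITY_DN1961_c0_g1, named lymphoid enhancer-binding factor 1 in SwissProt and TCF-1 in nr) had 21.3, 18.6, 28.5, 26.9, 31.0 and 32.1 CPM in head on days 0, 1, 3, 5, 7 and 10. In trunk it had 1.26, 1.97, 5.90, 9.79, 9.48 and 10.8 CPM, and in tail 1.25, 3.98, 12.3, 24.6, 22.5 and 28.6 CPM. At day 0 the log2 ratio of its level in head was 4.10 over tail, and at day 10 it was 0.17. Over all days it was higher in head than in trunk by 2.41 ± 0.43 (SE, edgeR adjusted p = 0.000853), higher in head than in tail by 1.24 ± 0.41 (edgeR adjusted p = 0.0343) and lower in trunk than in tail by -1.17 ± 0.42 (edgeR adjusted p = 0.0487). The trunk-to-tail call held in 6 of 15 alternatives and was lost among others without the day block (edgeR adjusted p = 0.121), on days 0 to 3 (edgeR adjusted p = 0.293) and without any 1 of days 1, 3, 5, 7 and 10. With days 5 to 10 alone the difference between head and tail was 0.25 (edgeR adjusted p = 0.114). In tail the late days averaged 25.2 CPM, against 5.83 CPM early, a difference of 2.12 ± 0.57 that just missed the threshold (edgeR adjusted p = 0.0511). TCF-1 (DN37596) (TRINITY_DN37596_c0_g3), a unigene of the same names, had 3.83 CPM on the late days in tail, against 0.640 CPM early, and rose by 2.56 ± 0.66 (edgeR adjusted p = 0.0335). That call held in 8 of 13 alternatives and was lost without day 0, 1, 5, 7 or 10 (edgeR adjusted p = 0.0577 to 0.169). The 2 may be parts of 1 gene, which the annotation does not settle, and the second held 1 count in the tail day 0 library and 1 in the trunk day 1 library. Against tail, 9 of 15 alternatives kept the call of the first and 7 of 15 that of the second.

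**Figure D5:**
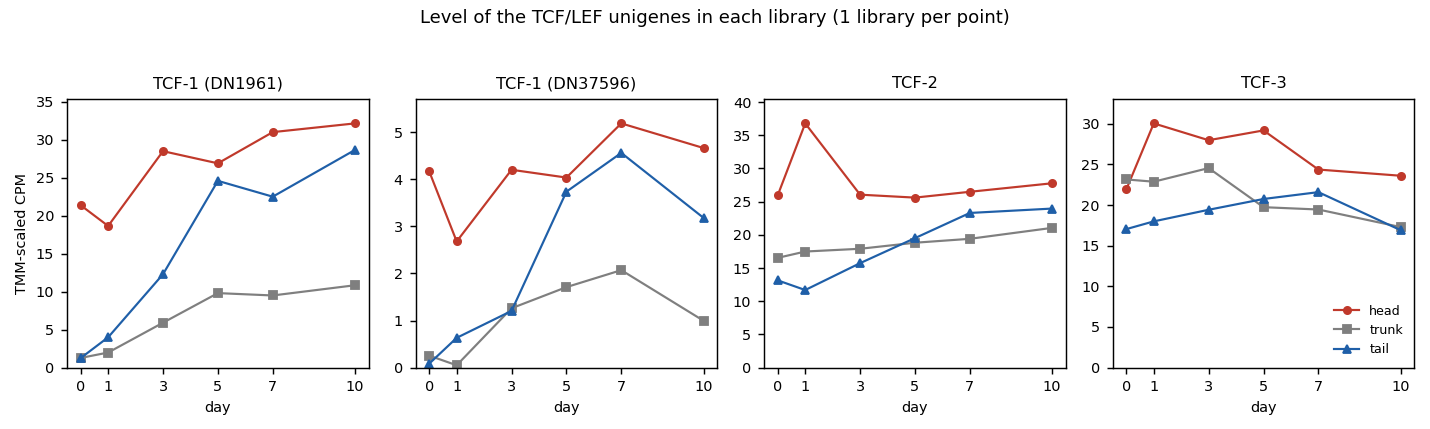
Level of 4 TCF/LEF unigenes in TMM-scaled CPM (vertical axes, from 0) against day in head, trunk and tail, 1 library per point. TCF-1 (DN1961) lies at 32.1 CPM in head, 10.8 CPM in trunk and 28.6 CPM in tail at day 10, TCF-2 is highest in head on every day, with 36.8 CPM in the head day 1 library, and TCF-3 lies between 16.9 and 30.1 CPM in all libraries.

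TCF-2 (TRINITY_DN13290_c0_g2, named transcription factor 7-like 2) had lowest, median and highest levels of 25.6, 26.3 and 36.8 CPM in head, 16.5, 18.4 and 21.0 CPM in trunk and 11.7, 17.6 and 24.0 CPM in tail, and every head library was above all others. It was higher in head than in tail by 0.68 ± 0.15 (SE, edgeR adjusted p = 0.00147) and than in trunk by 0.61 ± 0.14 (edgeR adjusted p = 0.00273). With days 5 to 10 alone the difference from tail was 0.26 and was not called (edgeR adjusted p = 0.0833). In tail it had 19.5, 23.3 and 24.0 CPM on the late days, against 13.1, 11.7 and 15.7 CPM early, and rose by 0.72 ± 0.15 (edgeR adjusted p = 0.00749), a call lost without day 7 (edgeR adjusted p = 0.0792) or day 10 (edgeR adjusted p = 0.0747). The late change of TCF-2 was not shown to differ between fragments (interaction, edgeR adjusted p = 0.0895), while DESeq2 and the fit with nearly no filter called it (adjusted p = 0.0207 and 0.0264). TCF-3 (TRINITY_DN408_c0_g1) was higher in head, at 26.2 ± 3.32 CPM, than in tail, at 18.95 ± 1.96 CPM (SD, n = 6 days each), by 0.46 ± 0.10 (SE, edgeR adjusted p = 0.00104). In tail, the 27 brain and eye markers had 8 higher and 1 lower late, beside 3.28% and 1.48% of all unigenes, but a median log2 change of -0.05. Their summed levels were 643 to 848 CPM late, against 619 to 727 CPM early, and their part was not tested.

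Like beta-catenin (DN3876) and TCF-3, the other 4 tested unigenes of the core list were named after their values were seen. LEF1-named (DN22233) (TRINITY_DN22233_c0_g1) was low, at 2.66 ± 0.589 CPM in head, 0.578 ± 0.464 CPM in trunk and 1.53 ± 1.14 CPM in tail (SD, n = 6 days each), with 0 counts in the trunk and tail libraries of day 0. It was higher in head than in trunk by 2.59 ± 0.53 (SE, edgeR adjusted p = 0.00125), without overlap, and its difference from tail missed the threshold (fold 2.30, edgeR adjusted p = 0.0732). Both totals, DESeq2, the fit with nearly no filter and days 0 to 3 alone called that difference (adjusted p = 0.000821 to 0.0290). Dvl-2 (TRINITY_DN1260_c1_g1), a second dishevelled by name, was at 49.7 ± 3.72 CPM in head and 42.2 ± 2.89 CPM in trunk (SD, n = 6 days each), higher in head by 0.23 ± 0.08 (SE, edgeR adjusted p = 0.0242), on 6 of 6 days with overlapping values. That call held in 9 of 15 alternatives and was lost without a filter (edgeR adjusted p = 0.112), without the head day 1 library (edgeR adjusted p = 0.0579), on days 0 to 3 (edgeR adjusted p = 0.308) and without day 5, 7 or 10. Another kinase, GSK-3 (DN8503) (TRINITY_DN8503_c0_g1), at 4.33 to 8.22 CPM in all libraries, and beta-catenin-like protein 1 (TRINITY_DN1231_c1_g1), tied to splicing in mammals, at 16.5 to 24.7 CPM, passed no fragment test.

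Upstream and beside the members, wider lists gave these counts, beside 18.9% of all unigenes higher and 19.1% lower in head than in tail. In tail late against early, 3.28% of all unigenes were higher and 1.48% lower. Of 24 Wnt ligands, receptors and secreted inhibitors, 11 were higher and 5 lower in head than in tail, and 6 were higher and 3 lower in tail late than early, with a median log2 difference between head and tail of 0.38 beside 0.02 for all unigenes tested. The Wnt ligand wnt11-1 (TRINITY_DN4986_c0_g1), also on the posterior list, was lower in head, at 1.89 CPM on average, than in tail, at 21.4 CPM, by -3.43 ± 0.90 (SE, edgeR adjusted p = 0.0120). In tail its late change was -1.98 ± 0.54 (edgeR adjusted p = 0.0532). Of 24 other intracellular unigenes (casein kinase I, phosphatase 2A subunits, Groucho and others), 2 were higher and 5 lower in head than in tail, and 0 passed late against early in tail, with a median of -0.07 between head and tail. Casein kinase I alpha (TRINITY_DN8783_c0_g1), which primes beta-catenin for GSK-3, was lower in head, at 10.8 CPM, than in tail, at 17.9 CPM, by -0.73 ± 0.11 (SE, edgeR adjusted p = 8.93e-05). Of 9 planar polarity unigenes, the 2 of DAAM1 among them, 6 were higher and 2 lower in head than in tail, with a median of 0.37. The receptor named ROR1 (TRINITY_DN26093_c0_g1) was higher in head, at 58.3 CPM, than in tail, at 34.2 CPM, by 0.79 ± 0.12 (edgeR adjusted p = 7.69e-05).

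By Pearson's r of log2(CPM + 1) over the 18 libraries among 7111 unigenes with a SwissProt name, the pattern most like that of Axin B was that of wnt11-1 (r = 0.960). Next came a homeobox unigene named Hox-A7 in SwissProt and PLOX5-Dj in nr (TRINITY_DN1859_c0_g2, r = 0.947) and one named php-3 and DjAbd-Ba (TRINITY_DN2826_c0_g2, r = 0.936), where php-3 is on the list of posterior markers. For GSK-3 (DN3910) the closest was sperm-associated antigen 1 (TRINITY_DN297_c0_g1, r = 0.972), and for Axin A transcription factor IIIB subunit (TRINITY_DN12626_c0_g1, r = 0.907). APC had the weakest best match of the 10 members, at r = 0.717. Among the members themselves, Axin B correlated with GSK-3 (DN3910) at r = 0.778 and with Axin A at r = 0.659, while Axin A and GSK-3 (DN1006) correlated at r = -0.746. The libraries of a fragment share tissue and scaling, so these values are descriptions.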

How the data were processed

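Messenger RNA was measured in 18 libraries of Dugesia japonica. Per the submitters' processing notes, FastQC, fastp 0.20.0, Bowtie2 and RSEM were used. The authors deposited raw counts per unigene, which are whole numbers and may be rounded, and 18 columns of log values that were not used. No genome build, count strand or transcript length is given in the sources used here, and no levels of different unigenes are compared. Groups come from the labels, with 1 library per fragment and day.

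The members and lists were chosen with earlier results of these data known. Of the unigenes, 23616 reached 1 CPM in 3 or more libraries and were tested. Models were fitted by quasi-likelihood in edgeR 4.0.16 under R 4.3.3 (robust fit, TMM scaling) with limma 3.58.1 and used fragment plus day (10 residual degrees of freedom), with day as block since the labels share it, or 6 groups of fragment by late or early days (12), late being days 5, 7 and 10 and early days 0, 1 and 3. P-values were Benjamini-Hochberg adjusted over all unigenes tested at 0.05. SE is the log2 fold change divided by the root of F. Ratios of counts were compared with an exact sign-flip test. Likeness used log2(CPM + 1). The named unigenes are the members and up to 4 called unigenes of each list with the largest difference between head and tail, and other core unigenes were named after their values were seen. List names were matched as whole words, with 4 name exclusions. The fits were also run on simulated counts with known changes. Those counts were drawn independently for each library, so they cannot test the use of days as replicates. Alternatives were other scalings, DESeq2 1.42.0, no count filter, no block, days 0 to 3 or 5 to 10 alone, slopes and libraries or days left out. Intervals of count ratios and the floor of 3 counts cover counting error only. Intervals of log2 differences were built from the edgeR SE, which holds the spread over days and libraries and not that between repeat pools. Tables and figures used Python 3.11.15, numpy 2.4.6, pandas 2.3.3, scipy 1.17.1 and matplotlib 3.10.9.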

Additional observations from a re-analysis of the deposited data

Results flagged for a closer look

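Axin B passed the test of a late-against-early change that differs between fragments (edgeR adjusted p = 0.0184 for the interaction). Its late-against-early log2 difference was 0.71 ± 0.18 in head, 0.03 ± 0.18 in trunk and -0.90 ± 0.18 in tail (SE). The head difference did not pass by itself (edgeR adjusted p = 0.106). The interaction call was lost in some fits with a day left out (edgeR adjusted p = 0.116 to 0.198). The level of TCF-2 in the head day 1 library, 36.8 CPM, stood apart from the other 5 head libraries, of which the highest had 27.8 CPM, so that the gap was 0.807 of the range of the fragment, above the 95% critical value of Dixon's test for 6 libraries. This was 1 flag among 57 groups of 6 libraries, and chance flags about 1 in 20 groups. The head day 1 library also had the highest TMM factor, 1.499, and the lowest share of the most abundant unigene, 13.0%, and the part of these in the level of TCF-2 was not tested.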

How the results depend on the processing

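For head against tail the 5 calls became 8 with plain library totals, 8 with totals without the most abundant unigene, 3 without a count filter, 3 without the head day 1 library and 1 with days 5 to 10 alone, and ran from 2 to 5 with each day left out. Head against trunk gave 7 with both totals, with 3 to 4 when a day was left out, and trunk against tail 6 with plain totals and 1 to 3. Change on any day gave 1 with DESeq2 and 1 without a filter. Late against early in head gave 1 with DESeq2, without a filter and with slopes over log2(day + 1), and 0 to 1 with a day left out. In tail the 2 calls became 1 with either total, DESeq2 size factors, no filter or slopes, and 0 to 1 with a day left out. The interaction kept its 1 call apart from leave-one-out fits, which ran from 0 to 1. Leaving out days in the late comparisons was added after the data were seen.

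Without the replicate block, 4 members were called in head against tail, 4 in head against trunk, 3 in trunk against tail and 0 on any day. Over all unigenes, change on any day was called for 1083 with the block, 16 without it, 2813 with DESeq2 and 4306 without a filter. Late against early the calls were 65 in head, 0 in trunk and 266 for the interaction, against 488, 70 and 936 with DESeq2, 711, 195 and 1202 without a filter, and 21 in head and 64 for the interaction without the head day 1 library. With a day left out they ran from 13 to 410 in head, 0 to 18 in trunk, 386 to 1941 in tail (1124 with all days) and 5 to 605 for the interaction, and with head or tail left out change on any day gave 150 and 19. Slopes called 329 in head and 25 in trunk. With fewer days, head against tail gave 5760 on days 5 to 10, and days 0 to 3 gave 5868 in head against trunk and 4944 in trunk against tail, against 8974, 9341 and 8403 with all days. Plain totals gave 16835 in head against tail. The causes were not tested.

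Values called in either setting turned sign only under the totals, which moved the median of all unigenes in head against tail by 0.70 (plain) and 0.25 (without the most abundant unigene), in head against trunk by 0.30 and 0.36 and in trunk against tail by 0.39 and -0.11. With plain totals the values in head against tail were 0.67 for beta-catenin-1, 0.65 for DAAM1 (DN4305), 0.38 for Axin A, 0.0312 for GSK-3 (DN3910), 0.67 for APC, 0.53 for the Sec1 family unigene and 0.0936 for beta-catenin (DN3876). In head against trunk GSK-3 (DN3910) was at 0.0766. In trunk against tail beta-catenin-1 was at 0.26, DAAM1 (DN4305) at 0.19, GSK-3 (DN1006) at 0.34, APC at 0.36 and Dvl-2 at 0.32. With totals without the most abundant unigene beta-catenin-1 was at 0.22, DAAM1 (DN4305) at 0.20 and APC at 0.23 in head against tail, and GSK-3 (DN3910) at 0.13 and the Sec1 family unigene at 0.0492 in head against trunk. Of the other member values, 964 kept their side of the threshold, 60 lost a call and 30 gained one. Each fragment and day had 1 library, which limits what can be told from library noise.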

Other observations

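Unigenes named after adhesion proteins, some of which are known to work with beta-catenin at cell contacts, were mostly higher in head. Of 28 tested unigenes with a cadherin, alpha- or delta-catenin, plakoglobin or vinculin name, 21 were higher and 1 lower in head than in tail, beside 18.9% and 19.1% of all unigenes. The median log2 difference was 0.70 beside 0.02 for all unigenes tested. In head against trunk 22 were higher and 2 lower, beside 17.8% and 21.7% of all unigenes. In tail, 11 of the 28 were higher and 0 lower late than early, beside 3.28% and 1.48% of all unigenes, with a median of 0.57 beside -0.01. Protocadherin Fat 4 (TRINITY_DN21676_c1_g1), a large adhesion protein, averaged 11.6 ± 1.1 CPM in head and 3.52 ± 3.15 CPM in tail (SD, n = 6 days each), a log2 difference of 2.12 ± 0.42 (SE, edgeR adjusted p = 0.00147). In tail it rose by 2.35 ± 0.40 late against early (edgeR adjusted p = 0.00199). Protocadherin-1 (TRINITY_DN5974_c0_g1) was higher in head than in tail by 1.46 ± 0.17 (edgeR adjusted p = 4.42e-06) and rose in tail by 1.46 ± 0.20 (edgeR adjusted p = 0.000435). The 44 neuronal markers moved with this list, with 24 higher and 11 lower in head than in tail and 8 higher and 3 lower in tail late than early, and their part was not tested.

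Counts of the remaining lists stand beside 18.1% of all unigenes higher and 17.5% lower in trunk than in tail, 17.8% higher and 21.7% lower in head than in trunk, and 18.9% higher and 19.1% lower in head than in tail. Of 21 stem cell unigenes, 7 were higher and 0 lower in trunk than in tail, and 1 was higher and 10 lower in head than in trunk. Of 15 intestine unigenes, 13 were higher and 1 lower in trunk than in tail, with a median log2 difference of 1.28. In head 4 of these were higher and 8 lower than in trunk, and 9 were higher and 1 lower than in tail. Of 42 cilia unigenes, 1 was higher and 18 lower in head than in tail, and 0 passed late against early in tail by edgeR.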
